A study of Mus musculus with 6 samples.

Results

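The 10 genes Trpc4, Trpc5, Trpc6, Dgkg, Dgkb, Dgki, Ryr2, Ryr3, Itpr1 and Prkcd were followed across the cell classes of the mouse septal area. They encode receptor-operated cation channels, diacylglycerol kinases, calcium release channels of the endoplasmic reticulum and a protein kinase C. They were taken by gene symbol from a table of 32285 genes, and all 10 had a row. The genes were picked from the levels measured here, summed per class, with those of Trpc4 and Dgkg in lateral septum-like neurons in view. Levels set against that class are therefore given as a description with no test, and tests were kept to other contrasts. The levels of the other classes come from the same sums. Counts of members called in those contrasts are therefore not independent of how the genes were picked. The shares of all genes set beside them were not matched to the members by level.

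The data are single nucleus RNA-seq of 6 samples, labelled as wild type mouse brain, septal area, and prepared with droplet-based 3' chemistry. There was 1 group and no treatment. Strain, age, sex and the number of animals are not given in the labels, so the spread between samples may be technical. The title speaks of nuclei and the protocol of cells, and the barcodes are called nuclei here.

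Receptors coupled to Gq proteins activate phospholipase C, which splits a membrane lipid into inositol trisphosphate and diacylglycerol. Inositol trisphosphate opens the receptor channel Itpr1 on the endoplasmic reticulum, while ryanodine receptors such as Ryr2 and Ryr3 release calcium from the same store when calcium rises. Diacylglycerol opens Trpc6 directly and recruits protein kinases C such as Prkcd, Trpc4 and Trpc5 are gated downstream of G protein-coupled receptors, and diacylglycerol kinases end the signal by turning diacylglycerol into phosphatidic acid. In the lateral septum, Trpc4 is known for the burst firing and plateau potentials that follow activation of group I metabotropic glutamate receptors.

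The 6 libraries held 7393 to 11134 barcodes and 70183544 to 95175260 UMIs, a UMI being the tag that marks 1 captured RNA molecule. Of 55537 barcodes, 914 had fewer than 500 detected genes and were left out. A nucleus entered a class when its marker genes, none of them a member, passed fixed UMI levels, which placed 37155 of 54623 nuclei (68.0%) in a class. Nuclei over the levels of several classes, as doublets would be, stayed out, and no doublet caller was run. There were 14 classes with at least 10 nuclei in at least 4 samples, 6 of neurons and 8 of other cells. Lateral septum-like neurons were the most numerous with 9958 nuclei, and the genes leading the class by fold over the others included the class markers Ano2 and Ptpn3, and also Myo5b, Cpa6, Col25a1 and Dgkg. Neurons positive for Chat and Slc5a7 had 65 nuclei, and 4 of the 6 samples (replicates 1, 3, 4 and 5) reached 10. They are called by those genes, because Slc18a3, the other cholinergic marker, was at 2.0 CPM (counts per 1e6 UMIs of the class). Pairs of libraries shared at most 0.433% of their barcodes.

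Neuronal RNA was also found in glial nuclei. The neuron transcripts Snap25, Syt1, Rbfox3, Snhg11 and Meg3 stood at 5.21 to 13.5% of their lateral septum-like level in astrocyte-like nuclei. In oligodendrocyte-like nuclei they stood at 4.76 to 14.2%, in oligodendrocyte precursor-like nuclei at 3.14 to 32.1%, and in pericyte or smooth muscle-like nuclei at 7.30 to 21.4%. A member within such a range in glia is read here as background. The range covers neuronal RNA only, and background from other cell types was not measured. Levels are compared within a gene across classes and not between genes, since long genes collect more UMIs in nuclei. In summed counts, fewer nuclei that express a gene and less RNA per nucleus cannot be told apart.

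**Figure D1:**
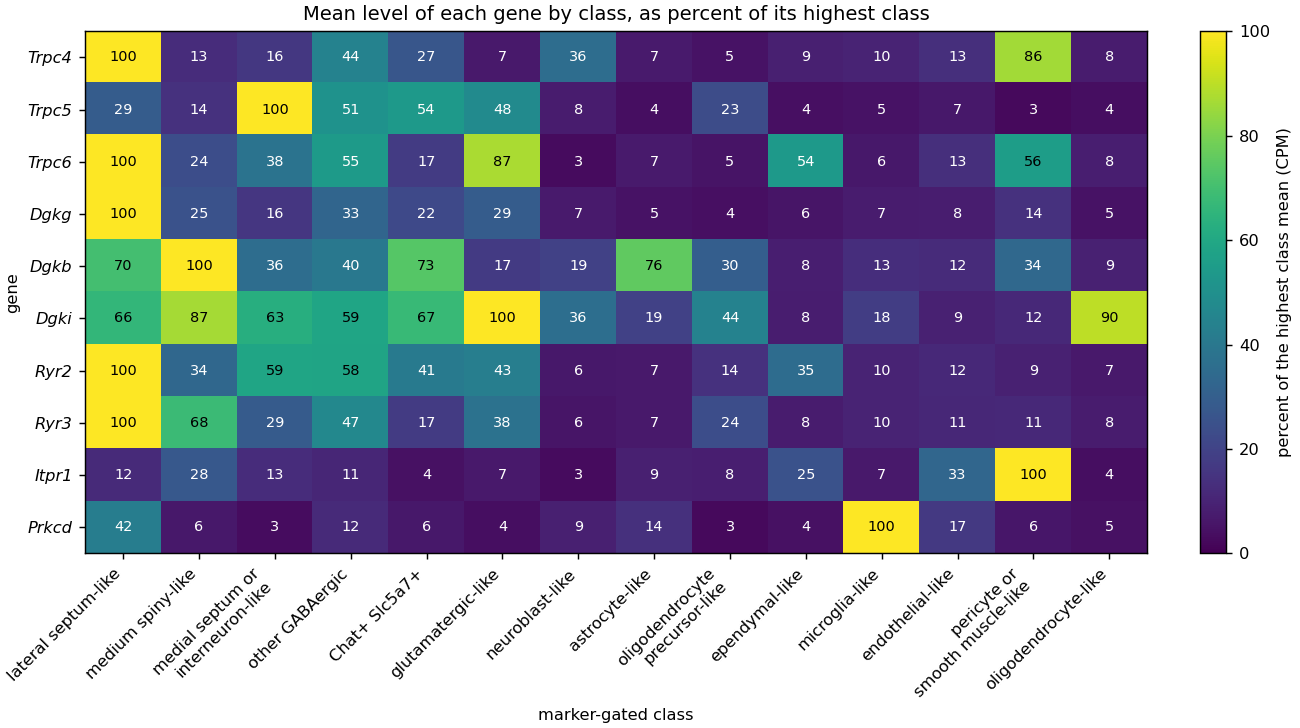
Mean level of each of the 10 genes (rows) in 14 marker-gated classes (columns), as percent of that gene's highest class mean in CPM; numbers in the cells are the percents. Trpc4, Trpc6, Dgkg, Ryr2 and Ryr3 have their highest mean in lateral septum-like neurons, and Trpc4 reaches 86.0% of that level in pericyte or smooth muscle-like nuclei.

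Trpc4, a receptor-operated cation channel, was highest in lateral septum-like neurons, with a lowest, median and highest sample of 767, 800 and 814 CPM. The 6 samples lay within a narrow band, at 796 ± 15.9 CPM (SD, n = 6). Pericyte or smooth muscle-like nuclei followed with 589, 704 and 746 CPM, which lay wholly below the lateral septum-like samples. At 86.0% of the lateral septum-like level, their Trpc4 was far above the range of the neuron transcripts in the same nuclei. Other GABAergic neurons had 352 ± 25.1 CPM and neuroblast-like nuclei 286 ± 61.8 CPM, and these classes overlapped. Glutamatergic-like neurons had 53.5 ± 13.2 CPM, below the mean of astrocyte-like nuclei at 57.0 ± 8.99 CPM (SD, n = 6 each), with overlapping samples. When every nucleus was thinned to 2000 UMIs, Trpc4 was detected in 72.7 ± 0.699% of lateral septum-like nuclei and in 66.6 ± 4.12% of pericyte or smooth muscle-like nuclei. In astrocyte-like nuclei, where it stood in the background range, the share was 11.4 ± 1.51%. The thinning left out 2, 86 and 472 shallower nuclei of these classes. Without thinning, the shares were 96.6%, 69.3% and 20.5% at median depths of 13596 to 16498.5, 2209 to 2887 and 3419.5 to 4474 UMIs per nucleus.

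The promoters of Trpc4 and Dgkg, the pair known to be high in lateral septum-like neurons, are shown for comparison with each other. RefSeq windows were matched for 8 of the 10 genes (GRCm38.p6), with 9 windows in all. Each sequence gives the 250 bases before the annotated start, 5' to 3' on the gene's strand, with matches to the searched motifs in capitals.
Trpc4, chr3:54155807-54156056, plus strand: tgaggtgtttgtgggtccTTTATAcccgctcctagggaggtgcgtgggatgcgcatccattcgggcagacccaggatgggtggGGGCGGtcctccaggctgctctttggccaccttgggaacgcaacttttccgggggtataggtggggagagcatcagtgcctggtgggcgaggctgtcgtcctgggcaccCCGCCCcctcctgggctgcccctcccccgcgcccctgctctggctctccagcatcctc
Dgkg, chr16:22657232-22657481, minus strand: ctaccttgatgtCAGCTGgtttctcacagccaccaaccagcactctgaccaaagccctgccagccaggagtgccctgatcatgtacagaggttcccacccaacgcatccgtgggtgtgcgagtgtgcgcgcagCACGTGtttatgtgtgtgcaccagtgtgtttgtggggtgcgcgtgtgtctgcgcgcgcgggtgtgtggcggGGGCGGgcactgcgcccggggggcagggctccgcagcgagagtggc
Both strands were searched for the GC box with the letters GGGCGG, the TATA box with the letters TATAAA and the cAMP response element with the letters TGACGTCA. The E-boxes searched had the letters CACGTG in one form, and in the other form the letters CAGCTG, and the EGR motif had GCGTGGGCG. The Trpc4 window held 2 GC boxes and 1 TATA box on the opposite strand, and the Dgkg window held 1 GC box and 1 of each E-box. Of 32851 promoter windows of this length, 32.7% held a GC box, 12.4% a TATA box, 6.02% the first E-box form and 13.0% the other, while 1.55% held the cAMP response element and 0.536% the EGR motif, which were in neither window. The GC box was thus the only searched motif that both windows held. The Trpc4 window had 12 CpG and the Dgkg window 18, against a median of 6 over all windows. Of all windows, 66.5% had fewer CpG than the Trpc4 window and 78.3% fewer than the Dgkg window. The matches are letters in a window and were not tested as binding sites.

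Trpc5, which forms channels with Trpc4 and shares much of its gating, had another order. Medial septum or interneuron-like GABAergic neurons were highest with 245, 382 and 388 CPM (lowest, median and highest sample). The Chat- and Slc5a7-positive neurons (112 to 270 CPM), other GABAergic neurons (167 to 211 CPM) and glutamatergic-like neurons (136 to 190 CPM) followed with overlapping samples. Lateral septum-like neurons came next at 98.5 to 111 CPM, below every sample of those 4 classes. Oligodendrocyte precursor-like nuclei had 75.5 to 93.5 CPM, and medium spiny-like neurons were lower than all of these with 41.1 to 67.5 CPM. The lateral septum-like level of 104 ± 5.24 CPM was thus 29.2% of the level in medial septum or interneuron-like neurons.

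Trpc6, opened directly by diacylglycerol, had 83.9, 92.4 and 107 CPM in lateral septum-like neurons and 51.6, 79.7 and 104 CPM in glutamatergic-like neurons. These 2 classes overlapped and could not be ordered. Pericyte or smooth muscle-like nuclei (52.2 ± 20.8 CPM), other GABAergic neurons (51.2 ± 7.67 CPM) and ependymal-like nuclei (50.3 ± 10.8 CPM) formed the next group. In ependymal-like nuclei Trpc6 reached 54.2% of its lateral septum-like level, where the neuron transcripts reached 5.15 to 15.5%. Medium spiny-like neurons had 15.8 to 30.2 CPM, below every lateral septum-like sample.

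Dgkg, a calcium-binding type I diacylglycerol kinase, was highest in lateral septum-like neurons, and its next class reached 32.7% of that level. The lateral septum-like samples had 932, 964 and 1007 CPM (lowest, median and highest), and the next class, other GABAergic neurons, had 289, 315 and 344 CPM. No sample of another class came near the lateral septum-like ones, and the means were 966 ± 29.7 and 316 ± 22.0 CPM (SD, n = 6 each). Glutamatergic-like neurons had 282 ± 25.1 CPM and medium spiny-like neurons 244 ± 76.9 CPM, overlapping with each other. Dgkg was at 4.93% of the lateral septum-like level in astrocyte-like nuclei, below the range of the neuron transcripts, and at 4.79% in oligodendrocyte-like nuclei, within it. In nuclei thinned to 2000 UMIs it was detected in 72.0 ± 1.05% of lateral septum-like and 8.72 ± 1.83% of astrocyte-like nuclei.

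Dgkb, another type I kinase known for its high level in the striatum, was highest in medium spiny-like neurons with 2546, 2924 and 3263 CPM. Astrocyte-like nuclei followed with 2088, 2219 and 2316 CPM. The Chat- and Slc5a7-positive neurons (1920 to 2632 CPM) and lateral septum-like neurons (1998 to 2106 CPM) overlapped with astrocyte-like nuclei. Oligodendrocyte precursor-like nuclei had 872 ± 30.3 CPM, and glutamatergic-like neurons had 491 ± 135 CPM, the lowest mean of the 6 neuron classes. Dgkb was detected in 95.8% of astrocyte-like nuclei and 88.0% of lateral septum-like nuclei after thinning.

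Dgki, a type IV kinase with ankyrin repeats, was high in glutamatergic-like neurons with 735, 828 and 891 CPM and in oligodendrocyte-like nuclei with 725, 738 and 765 CPM. Both classes overlapped with medium spiny-like neurons at 557 to 897 CPM. Lateral septum-like neurons had 514 to 567 CPM, in the middle of the neuron classes. The 3 kinases thus had their highest means in 3 different classes, and in glia Dgkb was high in astrocyte-like nuclei and Dgki in oligodendrocyte-like nuclei.

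Ryr2 and Ryr3, the calcium-induced release channels, were highest in lateral septum-like neurons. Ryr2 had 1213, 1239 and 1284 CPM there, against 696 to 818 CPM in medial septum or interneuron-like neurons and 668 to 831 CPM in other GABAergic neurons, which overlapped with each other. Ependymal-like nuclei had 424 to 489 CPM of Ryr2, or 35.4% of the lateral septum-like level. Ryr3 had 1426, 1557 and 1586 CPM in lateral septum-like neurons, followed by medium spiny-like neurons with 957, 1048 and 1123 CPM. The next classes for Ryr3 were other GABAergic neurons at 714 ± 29.8 CPM and glutamatergic-like neurons at 577 ± 51.7 CPM, each apart from its neighbours. Oligodendrocyte precursor-like nuclei had 363 ± 34.6 CPM of Ryr3.

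Itpr1, the inositol trisphosphate receptor best known from Purkinje cells, was highest outside neurons. Pericyte or smooth muscle-like nuclei had 926, 1130 and 1254 CPM, endothelial-like nuclei 297 to 462 CPM and ependymal-like nuclei 261 to 290 CPM. Among neurons, medium spiny-like neurons had 201 to 363 CPM, and lateral septum-like neurons had 127, 131 and 136 CPM, overlapping with medial septum or interneuron-like and other GABAergic neurons. Lateral septum-like neurons were thus highest for both ryanodine receptors and at 11.9% of the highest class for Itpr1.

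Prkcd, a calcium-independent protein kinase C, was highest in microglia-like nuclei with 153, 195 and 231 CPM. Lateral septum-like neurons followed with 75.0, 82.9 and 86.4 CPM, and no sample of any other neuron class exceeded 40.3 CPM. In the other 5 neuron classes the mean lay between 6.33 and 23.2 CPM.

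**Figure D2:**
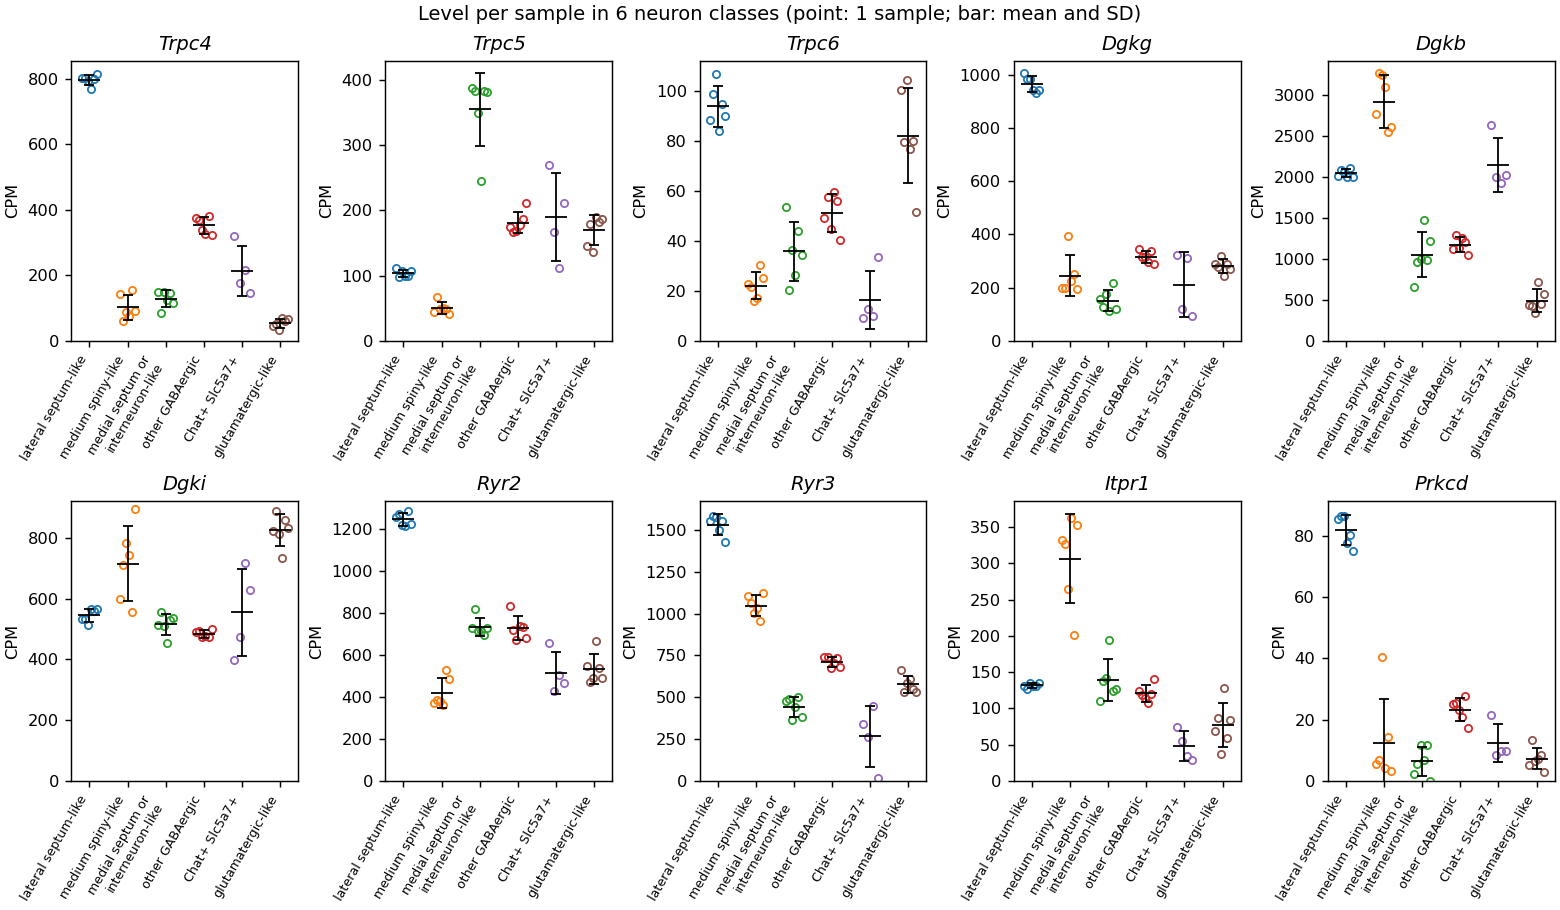
Level in CPM (vertical axis of each panel) of the 10 genes in 6 neuron classes; each open point is 1 sample and the bar gives the mean and SD. Trpc4, Dgkg, Ryr2, Ryr3 and Prkcd stand above all other neuron classes in lateral septum-like neurons, while Trpc5 is highest in medial septum or interneuron-like neurons and Dgkb in medium spiny-like neurons.

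Set against each other neuron class, lateral septum-like neurons had most members without overlap of samples. Against medium spiny-like neurons, 7 members were wholly higher, Dgkb and Itpr1 were wholly lower, and Dgki overlapped. The share of all genes wholly higher was 15.0%, and of genes wholly lower 5.78%. Against medial septum or interneuron-like neurons, 7 were higher and Trpc5 lower (14.1% and 7.31% of all genes). Against other GABAergic neurons, 8 were higher and Trpc5 lower (6.02% and 12.8%). Against the 4 samples of Chat- and Slc5a7-positive neurons, 7 were higher and Trpc5 lower (28.8% and 6.62%). Against glutamatergic-like neurons, 6 were higher and Trpc5 and Dgki lower (13.9% and 7.79%). Trpc4, Dgkg, Ryr2, Ryr3 and Prkcd were wholly higher in all 5 settings, but the genes were picked with such levels in view, so nothing is read from these counts.

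The contrast of medium spiny-like with glutamatergic-like neurons was tested, since lateral septum-like neurons do not enter it. Dgkb, Itpr1, Ryr3 and Trpc4 were higher in medium spiny-like neurons, and Trpc5 and Trpc6 were lower. That is 6 of 10 members called at an adjusted p under 0.05 (edgeR's quasi-likelihood test with Benjamini-Hochberg adjustment over 11265 genes), where 34.2% of all genes tested were called (18.6% higher and 15.6% lower). The log2 difference of Dgkb was 2.67 ± 0.14 (SE, adjusted p = 5.61e-09), with 2546 to 3263 CPM in medium spiny-like and 335 to 719 CPM in glutamatergic-like neurons. Itpr1 had 201 to 363 CPM in medium spiny-like and 36.7 to 128 CPM in glutamatergic-like neurons, a log2 difference of 2.12 ± 0.14 (adjusted p = 4.26e-08). For both genes the 6 samples of either class did not overlap. Ryr3 was 0.93 ± 0.09 higher on the log2 scale (adjusted p = 1.23e-06), higher in 6 of 6 samples. Trpc5 fell by 1.69 ± 0.12 and Trpc6 by 1.80 ± 0.17 on the log2 scale (adjusted p = 6.88e-08 and 1.30e-06), lower in all 6 samples. Dgkg, Dgki, Ryr2 and Prkcd were not called, with log2 differences of -0.19, -0.16, -0.29 and 0.51 (adjusted p = 0.221, 0.301, 0.0581 and 0.418). Replicate 3, with 37 medium spiny-like nuclei, had the highest Dgkg and Prkcd in that class, and without it Dgkg was called (-0.30, adjusted p = 0.0261) and Prkcd was at -0.19. Ryr2 was called without replicate 5 or 6 (-0.36 and -0.38), without the barcodes above the 95th percentile of UMIs (-0.33), with RLE size factors (-0.31) and with no low-count filter (-0.36). Trpc4 had 61.4 to 156 CPM in medium spiny-like and 34.1 to 68.7 CPM in glutamatergic-like neurons, a log2 difference of 0.96 ± 0.18 (adjusted p = 0.000941) with overlapping samples. When the marker UMIs needed for a class were doubled, 4 samples kept enough nuclei and the difference was -0.25 (adjusted p = 0.586). The classes and the set of samples changed together there. In the main setting Trpc4 stood at 12.9% of its lateral septum-like level in medium spiny-like and 6.73% in glutamatergic-like neurons. Both values lay within the 5.21 to 13.5% of the neuron transcripts in astrocyte-like nuclei. The part of background in the Trpc4 difference was not tested.

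Among 65 other genes of the pathway in 6 lists, 48 were tested here, of which 19 were higher in medium spiny-like neurons, 6 were lower and 23 were not called. The share called was 52.1%, beside 34.2% of all genes tested. The lists were chosen with earlier results of these data known, so nothing is read from this share or those of later contrasts. Of the TRPC channels, Trpc7 was higher (109 ± 16.3 against 22.0 ± 2.95 CPM, log2 difference 2.38). Of the phospholipases C that make diacylglycerol, Plcb1 was higher (2617 ± 158 against 975 ± 154 CPM), and Plcb4 was lower (76.2 ± 26.0 against 705 ± 118 CPM). Ryr1, the skeletal muscle ryanodine receptor, was higher at 35.4 ± 7.80 against 4.95 ± 3.51 CPM. Of the kinases C, Prkch was higher (148 ± 38.4 against 12.1 ± 17.2 CPM). None of the 7 other diacylglycerol kinases was lower, and Dgkz and Dgkd were higher. The adjusted p of the genes named here ranged up to 0.00965. The median log2 difference of the 48 genes was 0.31, against -0.01 over all genes tested.

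The Chat- and Slc5a7-positive neurons were compared with glutamatergic-like neurons in the 4 samples that had enough nuclei. Trpc4 and Dgkb were higher, and Trpc6, Ryr3 and Dgki were lower, so that 5 of the 9 members tested were called, where 14.0% of 8927 genes were (7.37% higher and 6.65% lower). Trpc4 had 144, 175, 214 and 319 CPM in Chat- and Slc5a7-positive neurons, against 51.5 ± 15.3 CPM in glutamatergic-like neurons (log2 difference 2.02 ± 0.24, adjusted p = 4.25e-05). Dgkb had 1920, 1999, 2022 and 2632 CPM, against 485 ± 164 CPM (2.12 ± 0.20, adjusted p = 4.60e-06). For both genes the samples of the 2 classes did not overlap. Trpc6 rested on 15 UMIs in the Chat- and Slc5a7-positive neurons and had 16.4 ± 11.7 CPM there, against 90.4 ± 14.1 CPM (-2.61 ± 0.35, adjusted p = 9.43e-05). Ryr3 ranged widely among the Chat- and Slc5a7-positive samples, with 19.3, 265, 338 and 448 CPM, against 601 ± 47.4 CPM in glutamatergic-like neurons. Its log2 difference of -1.43 ± 0.38 (adjusted p = 0.0187) was not called by DESeq2 (-1.69, adjusted p = 0.281) or without the sample as a block (-1.21, adjusted p = 0.0625). Dgki was 0.65 ± 0.18 lower (adjusted p = 0.0229) and lost the call when replicate 1, 3 or 5 was left out (log2 differences of -0.50, -0.57 and -0.69) and when the marker UMIs for a class were doubled (-0.62, in 3 samples). Trpc5, Dgkg, Ryr2 and Itpr1 were not called (log2 differences of 0.16, -0.59, -0.20 and -0.51), and Prkcd, with 13 UMIs, was too low to test. With 1 replicate left out, Trpc5 ranged over -0.13 to 0.43, Dgkg over -0.90 to -0.30, Ryr2 over -0.35 to -0.10 and Itpr1 over -0.82 to -0.07. Dgkg was called with no low-count filter (-0.71, adjusted p = 0.00501).

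Of the 65 pathway genes, 39 were tested in this contrast, 8 were higher, 8 were lower and 23 were not called. The share called was 41.0%, beside 14.0% of all genes tested. Trpc7 (154 ± 26.7 against 20.3 ± 1.69 CPM) and the kinase Dgkk (98.7 ± 18.6 against 11.4 ± 5.16 CPM) were higher, with log2 differences of 2.83 and 3.10. Rasgrp1, a Ras activator that binds diacylglycerol (8.85 ± 3.11 against 114 ± 15.1 CPM), was lower, with a log2 difference of -3.67. The adjusted p of these 3 genes ranged up to 4.92e-06.

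**Figure D3:**
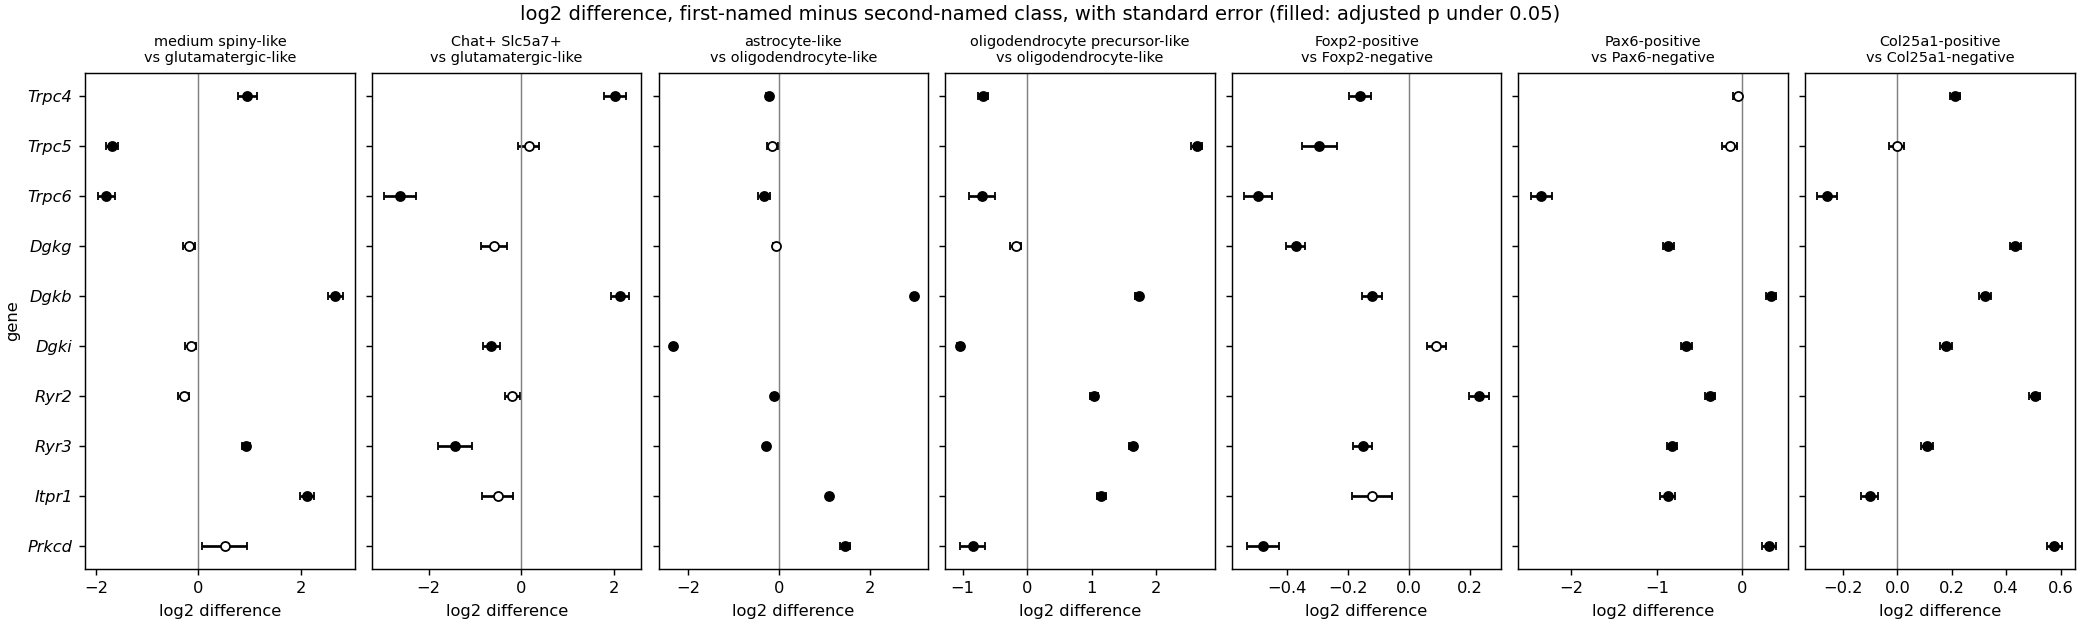
Log2 difference (horizontal axis, first-named minus second-named class) of the 10 genes (rows) in 7 contrasts, 1 panel each with its own scale; points give the edgeR estimate, bars its standard error, and filled points have an adjusted p under 0.05. Dgkb lies at 2.96 in the astrocyte-like against oligodendrocyte-like panel and Dgki at -2.32, and Trpc6 lies at -2.35 in the Pax6 panel.

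In glia, astrocyte-like nuclei had higher Dgkb, Itpr1 and Prkcd than oligodendrocyte-like nuclei, and oligodendrocyte-like nuclei had higher Dgki. In all, 8 of 10 members were called, where 71.5% of 15437 genes were (37.3% higher and 34.2% lower), so the count is near the background. Dgkb had 2088, 2219 and 2316 CPM in astrocyte-like nuclei (lowest, median and highest sample), against 228, 251 and 307 CPM in oligodendrocyte-like nuclei, a log2 difference of 2.96 ± 0.04 (adjusted p = 1.97e-27). Dgki had 134, 162 and 182 CPM in astrocyte-like nuclei, against 725, 738 and 765 CPM in oligodendrocyte-like nuclei, a log2 difference of -2.32 ± 0.05 (adjusted p = 4.77e-24). No sample of the classes overlapped for either gene. Dgkb in oligodendrocyte-like nuclei stood at 12.9% of its lateral septum-like level, within the range of the neuron transcripts, and Dgki in astrocyte-like nuclei stood above that range at 29.5%. Itpr1 had 97.4 ± 3.61 CPM in astrocyte-like and 42.0 ± 4.36 CPM in oligodendrocyte-like nuclei (1.10 ± 0.05, adjusted p = 1.61e-16). Prkcd had 26.4 ± 1.67 CPM in astrocyte-like and 8.77 ± 2.22 CPM in oligodendrocyte-like nuclei (1.45 ± 0.11, adjusted p = 1.19e-11). Both genes were above the range of the neuron transcripts in astrocyte-like nuclei, at 73.9% for Itpr1 and 32.4% for Prkcd. Itpr1 reached 843% in pericyte or smooth muscle-like and Prkcd 235% in microglia-like nuclei, and background from those cells was not measured. Trpc4, Trpc6, Ryr2 and Ryr3 were called lower by at most 0.34 on the log2 scale, but in both classes they were at 6.80 to 8.52% of the lateral septum-like level, within the range of the neuron transcripts, and are read as background. The calls of Trpc6 (without replicate 2 or 5, each -0.31) and Ryr2 (without replicate 3, 4 or 6, -0.10 to -0.11) were also lost when 1 library was left out, and both were lost with DESeq2 (-0.36 and -0.13). That of Ryr2 was lost as well with doubled marker UMIs (-0.08) and with no low-count filter (-0.09). Without the sample as a block 5 members were called, and the calls of Trpc4, Trpc6 and Ryr2 were lost. Trpc5 and Dgkg were not called, with log2 differences of -0.15 and -0.06 (adjusted p = 0.271 and 0.348).

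Oligodendrocyte precursor-like nuclei, set against oligodendrocyte-like nuclei, had higher Trpc5, Dgkb, Ryr3, Itpr1 and Ryr2 and lower Dgki. Trpc5 had 75.5, 79.6 and 93.5 CPM in oligodendrocyte precursor-like nuclei, against 11.96, 13.0 and 16.1 CPM in oligodendrocyte-like nuclei (log2 difference 2.63 ± 0.09, adjusted p = 3.11e-22). Every precursor-like sample lay above every oligodendrocyte-like sample. At 79.7% of the lateral septum-like level, Trpc5 in the precursor-like nuclei was above the 3.14 to 32.1% of the neuron transcripts. Dgkb had 872 ± 30.3 CPM in precursor-like nuclei, against 263 ± 33.4 CPM (1.73 ± 0.05, adjusted p = 8.24e-24). Ryr3 had 363 ± 34.6 CPM, against 117 ± 21.5 CPM (1.63 ± 0.05, adjusted p = 2.06e-22), and Ryr2 had 178 ± 5.95 CPM, against 86.9 ± 13.3 CPM (1.04 ± 0.06, adjusted p = 9.90e-16). Itpr1 had 93.5 ± 6.89 CPM, against 42.0 ± 4.36 CPM (1.15 ± 0.07, adjusted p = 4.87e-15), and stood at 71.0% of the lateral septum-like level in precursor-like nuclei. Both ryanodine receptors in precursor-like nuclei stood at 14.3 to 23.7% of the lateral septum-like level, inside the range of the neuron transcripts. That range is wide there because of Snap25 at 32.1%, and the other neuron transcripts stood at 3.14 to 11.8%. The part of background in the ryanodine receptor differences was not tested. Dgki had 365 ± 25.3 CPM in precursor-like nuclei, against 742 ± 16.3 CPM (-1.03 ± 0.05, adjusted p = 7.39e-19). Trpc4, Trpc6 and Prkcd were called lower, at 4.88 to 6.03% of the lateral septum-like level in precursor-like nuclei, within the background range. In all, 9 of 10 members were called, where 66.6% of 13871 genes were (33.9% higher and 32.8% lower). The call of Prkcd was lost when the marker UMIs for a class were doubled (-0.64, adjusted p = 0.0625). Dgkg, not called (-0.18, adjusted p = 0.0744), was called without replicate 5 or 6 (-0.22 and -0.24) and with no low-count filter (-0.21).

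In astrocyte-like against oligodendrocyte-like nuclei, 55 of the 65 other pathway genes were tested, 27 were higher and 16 lower. These are 78.2% called, beside 71.5% of all genes, and their median log2 difference was 0.26, against 0.01 over all genes tested. The phospholipases C and Gq proteins had 11 higher and 2 lower of 13 tested, with Plcd4 at 134 ± 6.60 against 7.28 ± 1.53 CPM and Plce1 at 288 ± 20.01 against 17.4 ± 3.48 CPM. The inositol trisphosphate receptor Itpr2 was higher at 307 ± 2.41 against 100 ± 21.9 CPM (log2 difference 1.52), as was protein kinase D1, Prkd1, at 698 ± 37.6 against 66.2 ± 2.999 CPM. The junctophilin Jph1 was lower at 14.8 ± 1.96 against 214 ± 13.5 CPM, and so were Prkcq at 12.9 ± 4.42 against 241 ± 14.5 CPM and Prkcz at 18.0 ± 1.95 against 297 ± 13.7 CPM. In precursor-like against oligodendrocyte-like nuclei, 52 were tested, 28 were higher and 13 lower. These are 78.8% called, beside 66.6% of all genes, with a median log2 difference of 0.44, against -0.02 over all genes tested. Nothing particular to the pathway is read from either share. The genes that were higher in precursor-like nuclei included Itpr2 at 527 ± 35.8 against 100 ± 21.9 CPM and the diacylglycerol kinase Dgkh at 134 ± 8.03 against 31.9 ± 4.73 CPM. Unc13c, a synaptic vesicle priming factor that binds diacylglycerol, was higher at 575 ± 25.2 against 21.6 ± 5.20 CPM. All genes named in these sentences had an adjusted p of at most 9.84e-18.

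**Figure D4:**
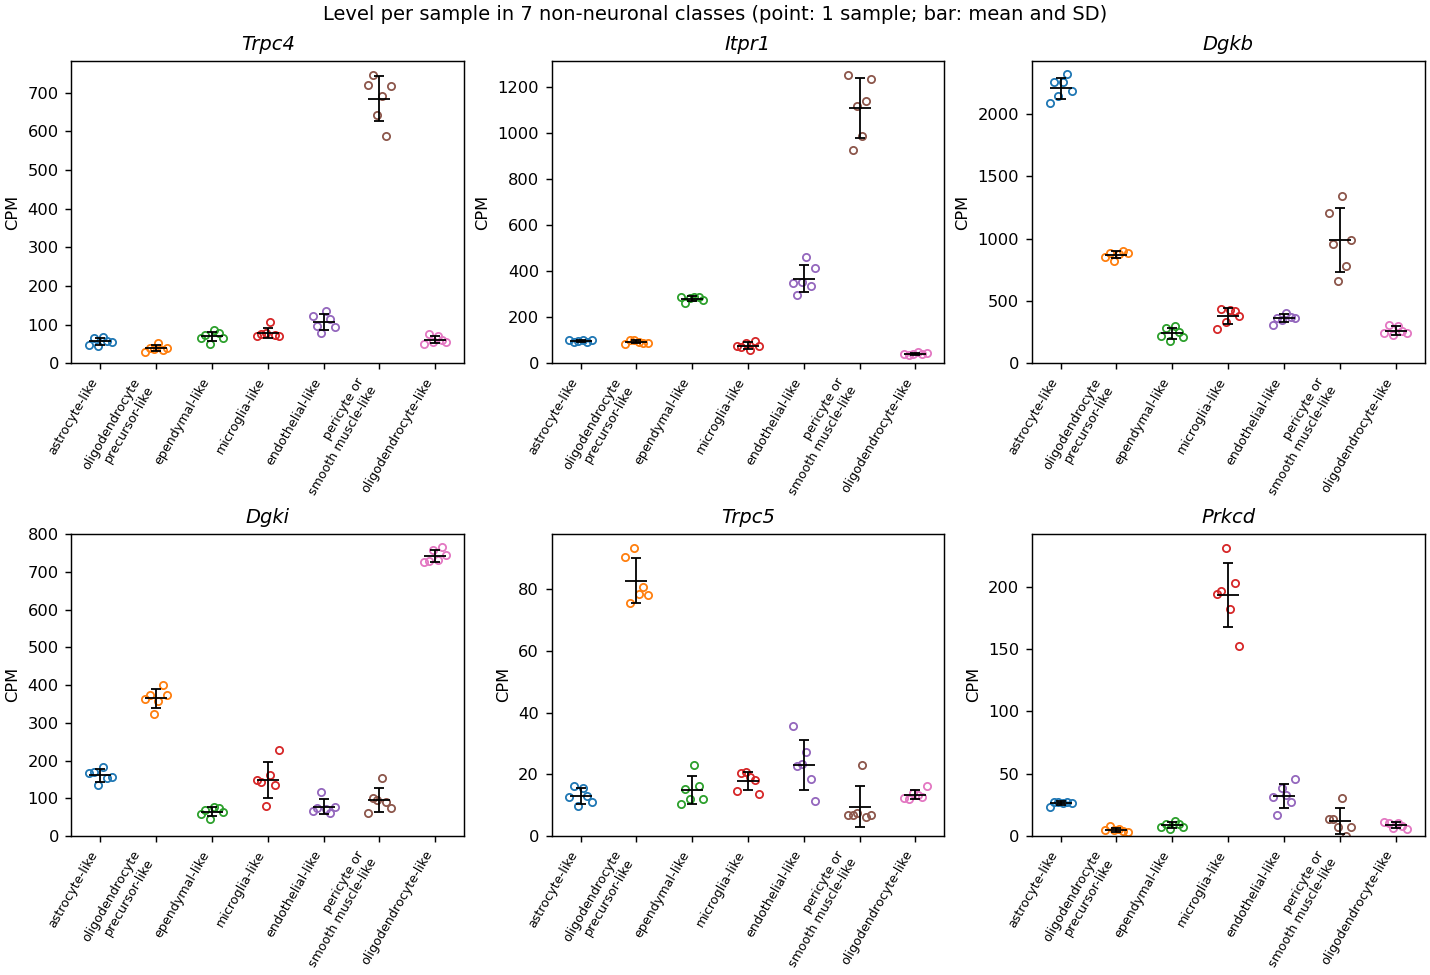
Level in CPM (vertical axis) of 6 genes in 7 non-neuronal classes; each open point is 1 sample and the bar gives the mean and SD. Trpc4 and Itpr1 peak in pericyte or smooth muscle-like nuclei, Dgkb in astrocyte-like, Dgki in oligodendrocyte-like, Trpc5 in oligodendrocyte precursor-like and Prkcd in microglia-like nuclei.

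Lateral septum-like neurons were then split by Foxp2, Pax6 or Col25a1, called in each nucleus after thinning to 2000 UMIs. Foxp2 and Pax6 encode transcription factors and Col25a1 a membrane collagen. A nucleus with no thinned UMI can still express the gene. Over the 6 samples, 9.82 to 15.6% of lateral septum-like nuclei were Foxp2-positive, 2.92 to 4.26% Pax6-positive and 51.9 to 57.1% Col25a1-positive. These are 1281, 335 and 5438 nuclei. The median depth ranged between samples over 12398 to 13952.5 UMIs in Pax6-positive and 13592 to 16674 in Pax6-negative nuclei, and over 14731 to 17690 in Col25a1-positive and 12355.5 to 15327.5 in Col25a1-negative nuclei. The part of depth in the differences was not tested.

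Pax6-positive lateral septum-like neurons had little Trpc6. Its level was 13.3, 17.9 and 27.4 CPM (lowest, median and highest sample) in Pax6-positive neurons, from 97 UMIs, against 85.9, 94.8 and 109 CPM in Pax6-negative neurons. The samples of the 2 sides lay far apart, with means of 19.5 ± 6.34 and 96.1 ± 8.21 CPM and a log2 difference of -2.35 ± 0.12 (adjusted p = 2.03e-25). Trpc4 did not follow, with 785 ± 56.4 CPM in Pax6-positive and 796 ± 15.1 CPM in Pax6-negative neurons (-0.05 ± 0.06, adjusted p = 0.672). Dgkg had 419, 589 and 625 CPM in Pax6-positive neurons, against 941, 976 and 1020 CPM in Pax6-negative neurons (-0.86 ± 0.06, adjusted p = 1.56e-18). The 3 store channels were all lower in Pax6-positive neurons, lower in 6 of 6 samples each. Ryr3 had 899 ± 80.1 CPM in Pax6-positive and 1553 ± 61.3 CPM in Pax6-negative neurons (-0.82 ± 0.06, adjusted p = 3.68e-19), and Ryr2 had 986 ± 73.3 and 1252 ± 29.2 CPM (-0.38 ± 0.06, adjusted p = 1.57e-07). Itpr1 had 74.4 ± 13.5 CPM in Pax6-positive and 133 ± 3.48 CPM in Pax6-negative neurons (-0.87 ± 0.09, adjusted p = 9.62e-13). Dgki was also lower at 359 ± 60.6 against 551 ± 22.1 CPM (-0.66 ± 0.07, adjusted p = 6.82e-13). Trpc5 had 96.7 ± 22.5 CPM in Pax6-positive and 104 ± 5.17 CPM in Pax6-negative neurons and was not called (-0.14, adjusted p = 0.364). It was called at -1.04 (adjusted p = 0.00282) when a positive nucleus needed 2 thinned UMIs, which 4 samples allowed.

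Dgkb and Prkcd ran the other way in Pax6-positive neurons. Dgkb had 2624 ± 245 CPM in Pax6-positive and 2025 ± 45.7 CPM in Pax6-negative neurons (0.34 ± 0.05, adjusted p = 1.42e-06). Prkcd had 103 ± 9.03 and 81.2 ± 5.11 CPM (0.31 ± 0.08, adjusted p = 0.00371), with no overlap between the sides for either gene. Both calls were lost when the marker UMIs for the class were doubled (0.12 and 0.10) and when a positive nucleus needed 2 thinned UMIs (0.40 and 0.08, in 4 samples), as was then that of Ryr2 (-0.41), and that of Prkcd also without the barcodes above the 95th percentile of UMIs (0.25). In all, 8 of 10 members were called, where 12.7% of 18060 genes were (4.31% higher and 8.43% lower). The genes tested were not matched to the members by level, so nothing is read from this count. Markers of the class moved too: Ano2, Ptpn3, Col6a3 and Crhr2, 4 of the 6 lateral septum markers, were wholly lower in Pax6-positive neurons and Homer2 was wholly higher. Ano2 had 66.0 ± 23.9 CPM in Pax6-positive and 251 ± 13.4 CPM in Pax6-negative neurons. The 6 markers summed to 446 to 504 CPM in Pax6-positive and 682 to 742 CPM in Pax6-negative neurons, and none was at 0. Of the 6 medium spiny markers, Drd1, Adora2a and Pde10a were wholly lower in Pax6-positive neurons, with Adora2a at 0 there. The list summed to 348 to 474 CPM in Pax6-positive and 520 to 593 CPM in Pax6-negative neurons. Among the other lists, Syt1 and Rbfox3 were wholly higher, and Snap25 and Gad1 wholly lower. Slc17a7, Slc17a8, Nkx2-1, Pvalb, Chat, Rgs5, Dcn and Foxj1 were also wholly lower, with no sample above 5.23 CPM on either side. The part of these markers in the result was not tested.

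In the rest of the pathway, 62 of the 65 genes were tested between Pax6-positive and Pax6-negative neurons, with 7 higher and 13 lower. The share called was 32.3%, beside 12.7% of all genes tested. Prkca, a calcium-dependent protein kinase C, was higher at 1825 ± 182 against 740 ± 24.1 CPM (log2 difference 1.27, adjusted p = 2.85e-28), and Prkcb, another one, was lower at 359 ± 53.0 against 714 ± 9.33 CPM (-1.03, adjusted p = 1.03e-21). Dgkh was lower at 228 ± 20.6 against 393 ± 10.3 CPM (-0.82, adjusted p = 6.66e-17), as were the store calcium pump Atp2a2 at 202 ± 23.9 against 290 ± 12.7 CPM and Plcb1 at 1290 ± 245 against 1828 ± 36.0 CPM. The median log2 difference of the 62 genes was -0.13, against -0.05 over all genes tested.

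Foxp2-positive lateral septum-like neurons had lower Prkcd, Trpc6 and Dgkg and higher Ryr2. Prkcd had 51.4, 58.3 and 71.5 CPM in Foxp2-positive neurons, against 78.3, 85.6 and 90.3 CPM in Foxp2-negative neurons (-0.48 ± 0.05, adjusted p = 4.65e-07). Trpc6 had 61.4, 69.7 and 75.3 CPM, against 88.2, 95.8 and 110 CPM (-0.50 ± 0.05, adjusted p = 4.54e-08). Dgkg had 706, 772 and 808 CPM, against 963, 993 and 1032 CPM (-0.37 ± 0.03, adjusted p = 9.79e-09). For all 3 genes the Foxp2-positive samples lay wholly below the Foxp2-negative ones. Ryr2 lay wholly above, with 1284, 1459 and 1492 CPM in Foxp2-positive neurons, against 1189, 1216 and 1252 CPM (0.23 ± 0.03, adjusted p = 1.59e-05), while Ryr3 was lower by 0.15 ± 0.03 (adjusted p = 0.00126). Trpc4, Trpc5 and Dgkb were lower by 0.16, 0.29 and 0.12. Dgki and Itpr1 were not called (0.09 and -0.12, adjusted p = 0.0558 and 0.267). When a positive nucleus needed 2 thinned UMIs, both were called (0.16 and -0.25, adjusted p = 0.00298 and 0.0116). Dgki was also called with doubled marker UMIs (0.13), and Itpr1 without the barcodes above the 95th percentile of UMIs (-0.22) and with no low-count filter (-0.14). In all, 8 of 10 members were called, where 14.6% of 17449 genes were (7.22% higher and 7.40% lower). Here too the genes tested were not matched by level, and nothing is read from the count. The calls of Dgkb, Trpc5 and Ryr3 were each lost under at least 1 alternative: Dgkb without replicate 4, with positive nuclei at 2 thinned UMIs (-0.09 in each) and without the sample as a block (-0.12), Trpc5 without the barcodes above the 95th percentile of UMIs (-0.20), and Ryr3 with the marker UMIs for the class doubled (-0.07). Of the 6 lateral septum markers, Ano2, Ptpn3 and Col6a3 were wholly lower in Foxp2-positive neurons and none was at 0. Their sum was 455 to 504 CPM in Foxp2-positive and 704 to 762 CPM in Foxp2-negative neurons. Of the 6 medium spiny markers, 2 were wholly higher in Foxp2-positive neurons. Rgs9 had 27.0 to 36.3 CPM in Foxp2-positive and 17.1 to 23.5 CPM in Foxp2-negative neurons, and Drd1 had 3.36 to 5.33 and 1.39 to 2.16 CPM. The 6 medium spiny markers, none at 0, summed to 481 to 749 CPM in Foxp2-positive and 503 to 560 CPM in Foxp2-negative neurons. Of the 5 astrocyte markers, Slc1a3 was wholly higher, and that list summed to 117 to 172 CPM in Foxp2-positive and 77.5 to 118 CPM in Foxp2-negative neurons. Of the markers of the other lists, Cspg4 was wholly higher (3.46 to 7.73 against 1.45 to 3.08 CPM). Snap25, Chat, Igfbpl1 and Col1a1 were wholly lower. The part of these markers in the result was not tested. Of 62 pathway genes tested, 8 were higher and 12 lower, with Prkca lower in 6 of 6 samples at 527 ± 52.1 against 808 ± 12.5 CPM. The share of pathway genes called was 32.3%, beside 14.6% of all genes tested.

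Col25a1-positive lateral septum-like neurons had higher Prkcd, Ryr2 and Dgkg. Prkcd had 88.5, 93.8 and 100.5 CPM in Col25a1-positive neurons, against 58.4, 66.1 and 69.2 CPM in Col25a1-negative neurons (0.58 ± 0.03, adjusted p = 2.74e-12). Ryr2 had 1376, 1400 and 1456 CPM, against 982, 1025 and 1052 CPM (0.50 ± 0.02, adjusted p = 6.71e-14). Dgkg had 1027, 1077 and 1107 CPM, against 785, 817 and 852 CPM (0.43 ± 0.02, adjusted p = 7.71e-13). None of the 3 genes had overlapping samples. Dgkb (2205 ± 75.2 against 1810 ± 43.9 CPM, 0.32 ± 0.02) and Trpc4 (835 ± 19.2 against 740 ± 15.7 CPM, 0.21 ± 0.02) were also wholly higher. Dgki was higher by 0.18, and Trpc6 was lower by 0.26 at 85.5 ± 5.20 against 105 ± 13.6 CPM (adjusted p = 8.30e-06). Ryr3 was called higher by 0.11, in 4 of 6 samples, had a difference of -0.03 with the marker UMIs for the class doubled, and lost the call without the sample as a block. Trpc5, at 102 ± 4.60 against 106 ± 7.08 CPM, was not called (-0.0027 ± 0.0284, adjusted p = 0.963), and was called higher by 0.15 (adjusted p = 0.0166) with doubled marker UMIs. Itpr1 was called lower by 0.10 (adjusted p = 0.0271), a call lost when replicate 2, 5 or 6 was left out (-0.10, -0.07 and -0.09), with DESeq2 and without the sample as a block (-0.10 in each). In all, 9 of 10 members were called, where 21.8% of 17176 genes were (11.6% higher and 10.2% lower). Col25a1 was itself a leading gene of the lateral septum-like class, as was Dgkg. The count is therefore not independent of how the members were picked. Of the 6 lateral septum markers, Ano2 and Ptpn3 were wholly higher, Esr1 was wholly lower and none was at 0. Their sum was 724 to 797 CPM in Col25a1-positive and 587 to 637 CPM in Col25a1-negative neurons. None of the 6 medium spiny markers lay wholly apart, and they summed to 518 to 607 CPM in Col25a1-positive and 504 to 559 CPM in Col25a1-negative neurons. Of the markers of the other lists, Rbfox3 and Lum were wholly higher, and Syt1 and Nkx2-1 wholly lower. The part of these markers in the result was not tested. Of 61 pathway genes tested, 15 were higher and 13 lower. The share of pathway genes called was 45.9%, beside 21.8% of all genes tested. Dgkh was higher at 445 ± 11.5 against 308 ± 13.7 CPM (0.57, adjusted p = 3.23e-13) and Dgkz at 95.6 ± 6.18 against 74.2 ± 3.90 CPM, and Prkca was lower at 652 ± 34.3 against 941 ± 20.8 CPM.

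**Figure D5:**
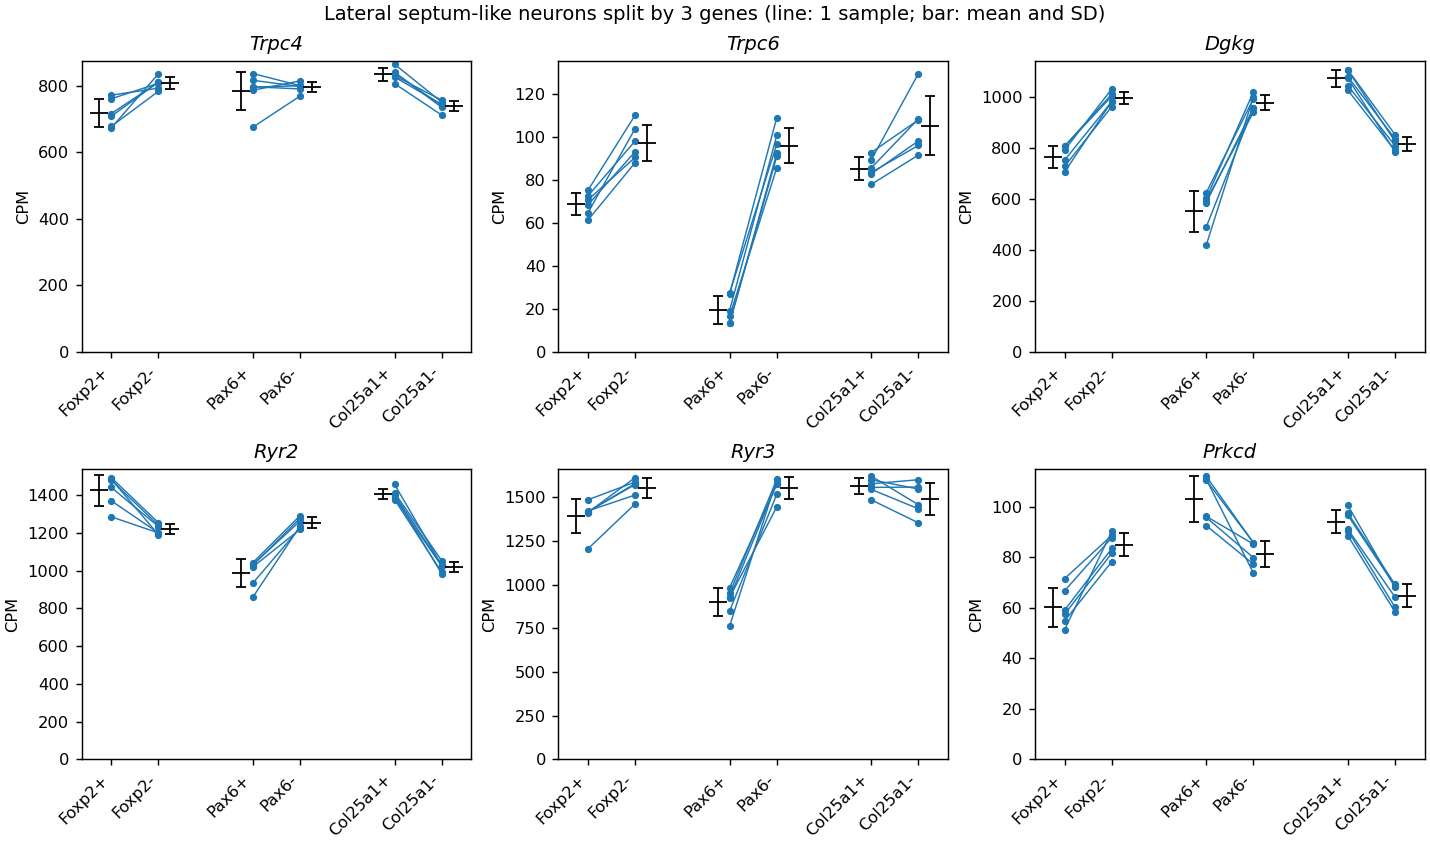
Level in CPM (vertical axis) of 6 genes in lateral septum-like neurons positive (+) and negative (-) for Foxp2, Pax6 or Col25a1; each line joins the 2 sides of 1 sample and the bars give the mean and SD. Trpc6 is at 19.5 CPM in Pax6-positive and 96.1 CPM in Pax6-negative neurons, and Trpc4 differs little between those sides.

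Of the 65 other genes of the pathway, Dgkh (388 ± 10.6 CPM), Prkca (772 ± 18.2 CPM) and Prkci (40.3 ± 2.29 CPM) had their highest class mean in lateral septum-like neurons. Trpc1 was highest in pericyte or smooth muscle-like nuclei. That class thus had the highest level of Trpc1 and Itpr1 and the second highest of Trpc4. Of the 16 genes for Gq proteins and phospholipases C, 15 were highest outside neurons, among them Plcb1, Plcb4 and Gnaq in endothelial-like nuclei. Plcb1 had 3939 ± 473 CPM in endothelial-like nuclei and 1813 ± 38.2 CPM in lateral septum-like neurons. The highest class was not counted over all genes, and 8 of the 14 classes are not neurons, so nothing is read from these counts.

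The genes whose levels over the 14 class means were most like those of Trpc4 and Dgkg were ranked by Pearson's r of log2(CPM + 1) among 11492 genes with at least 20 CPM in 1 class or more. Classes share libraries and differ in depth, so r is a description. Trpc4 was most like Usp1 (r = 0.914), Ano1 (0.863), Csnk1g1 (0.859), Gpc3 (0.820) and Abcb5 (0.810). Of these, 3 peaked in pericyte or smooth muscle-like nuclei. Usp1 and Abcb5 peaked in neuroblast-like nuclei at only 22.4 and 21.6 CPM, near the limit of 20 CPM. Among the genes most like Dgkg were Camk2a (0.931), Gm41414 (0.926), 4930447C04Rik (0.915) and Kcnk9 (0.914), all 4 highest in lateral septum-like neurons. Between Trpc4 and Dgkg themselves r was 0.645. The nearest gene was Gm20642 for Trpc5 (0.960), Tasp1 for Trpc6 (0.887), Cdr1os for Ryr2 (0.975), Hs6st2 for Ryr3 (0.970), Col4a1 for Itpr1 (0.868) and Cyfip1 for Prkcd (0.947).

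For Dgkb and Dgki the nearest genes were antisense transcripts annotated across the gene itself. 4930428E07Rik, on the opposite strand of Dgkb, had r = 0.946, and 1700111E14Rik, on the opposite strand of Dgki, had r = 0.973 (GENCODE, matched by gene identifier). 1700111E14Rik was at 129 ± 16.8 CPM in glutamatergic-like neurons, its highest class, or 15.6% of Dgki there, a ratio of UMIs not scaled to gene length. Of the 9 genes in the gene table that overlap a member on the opposite strand, Gm32014 stood out with 53.2 ± 2.38 CPM in lateral septum-like neurons, or 56.7% of the Trpc6 level. Aven, across Ryr3, was at 48.8 ± 3.28 CPM in oligodendrocyte-like nuclei, or 41.6% of the Ryr3 level there. No source used here says whether the counting used strand, so reads of Trpc6, Dgkb, Dgki and glial Ryr3 cannot be told apart with certainty from those of their antisense partners.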

How the data were processed

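UMI counts per gene and barcode were deposited by the authors as raw whole numbers for 6 samples. They were made with Cell Ranger 3.1.0 and STAR per the submitters' processing notes, while the file headers name Cell Ranger 5.0.0. No source used here gives the genome build, or says whether introns or strand entered the counting. No doublet caller was run. Barcodes with at least 500 genes were placed in classes by marker UMIs, with levels set after the marker distributions were seen. Counts were summed per sample and class, for classes with at least 10 nuclei in at least 4 samples, and scaled to CPM. With no animals named in the labels, p-values measure only the spread between these samples.

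Class contrasts were tested with edgeR 4.0.16 in R 4.3.3 (quasi-likelihood test, TMM, filterByExpr, Benjamini-Hochberg over all genes tested, threshold 0.05). The sample was a block, because both classes come from the same library. Standard errors were computed as the log2 difference over the square root of F. The test was tested on simulated data. A share of genes without overlap is over genes with at least 10 UMIs.

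The members and lists were chosen with earlier results of these data known. All 10 members are named in every tested contrast, and other pathway genes were drawn from at most 2 per list and direction with the largest log2 change past the threshold. Trpc2 was not analysed here, and some other genes are not reported here. Alternatives were doubled marker UMIs, at least 1000 genes, no barcodes above the 95th percentile of UMIs, RLE size factors, DESeq2 1.42.0, no low-count filter, no block, splits at 2 UMIs, and each replicate left out.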

Additional observations from a re-analysis of the deposited data

Results flagged for a closer look

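In 14 of 140 groups of samples, each a gene in a class, 1 sample lay far from the others by Dixon's criterion, where chance gives about 1 in 20. Replicate 3 of the medium spiny-like neurons, with 37 nuclei, had 394 CPM of Dgkg, against 195 to 252 CPM in the other samples, and 40.3 CPM of Prkcd, against 3.16 to 14.5 CPM. Replicate 2 of that class had 67.5 CPM of Trpc5, against 41.1 to 49.5 CPM. In medial septum or interneuron-like neurons, replicate 4 was low for Trpc5 with 245 CPM, against 350 to 388 CPM, and replicate 2 was high for Ryr2 with 818 CPM, against 696 to 726 CPM.

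In Chat- and Slc5a7-positive neurons, replicate 1 had 2632 CPM of Dgkb, against 1920 to 2022 CPM, and 21.5 CPM of Prkcd from 7 UMIs. Replicate 5 had 33.7 CPM of Trpc6, also from 7 UMIs. Replicate 4 stood out in 3 other classes, with 106 CPM of Trpc4 in microglia-like nuclei against 70.4 to 78.9 CPM, 489 CPM of Ryr2 in ependymal-like nuclei against 424 to 439 CPM, and 23.0 CPM of Trpc5 in pericyte or smooth muscle-like nuclei from 3 UMIs. Replicate 3 had 116 CPM of Dgki in endothelial-like nuclei, against 59.9 to 75.7 CPM. Prkcd was at 52.0 CPM in replicate 5 of neuroblast-like nuclei, from 6 UMIs, and at 23.1 CPM in replicate 1 of astrocyte-like nuclei, where the other samples had 26.6 to 27.6 CPM.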

How the results depend on the processing

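The counts of members called or without overlap stayed within 1.5 times their value in 138 of 139 checks. The exception was astrocyte-like against oligodendrocyte-like nuclei, with 5 members called without the replicate block. With each replicate left out, the counts of members called were 6 to 7 (medium spiny-like), 4 to 5 (Chat- and Slc5a7-positive), 7 to 8 (astrocyte-like), 9 to 10 (precursor-like), 7 to 8 (Foxp2), 8 (Pax6) and 8 to 9 (Col25a1). For single genes, 906 values held, 36 lost a call, 16 gained one, 18 changed sign and 12 levels moved by more than 1 SD. With doubled marker UMIs, the medium spiny-like against glutamatergic-like difference, then over 4 samples, was -0.25 for Trpc4 and 0.10 for Dgki, and the Col25a1 difference was -0.029 for Ryr3 and 0.15 for Trpc5. Leaving out replicates gave -0.19 to 0.92 for Prkcd in medium spiny-like neurons and -0.13 to 0.43 for Trpc5 in Chat- and Slc5a7-positive neurons. Trpc4 between Pax6 sides was at 0.11 with 2 thinned UMIs, 0.027 with RLE size factors and 0.028 with DESeq2, and ranged over -0.062 to 0.0080 with a replicate left out. Trpc5 between Col25a1 sides was at 0.0051 with 1000 genes, 0.0136 with 2 thinned UMIs, 0.000356 with RLE size factors, 0.00321 with no filter and 8.87e-05 with DESeq2, and ranged over -0.0285 to 0.0135 with a replicate left out. The cause was not tested. No contrast or overlap could be had for Chat- and Slc5a7-positive neurons without the deepest barcodes. Fewer than 2 samples kept 10 nuclei there, and a contrast needed 2. Their overlap needed 4 samples and could also not be had with doubled marker UMIs or with replicate 1, 3, 4 or 5 left out. Low levels such as Prkcd in neurons rest on few UMIs.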
